A study of Homo sapiens with 6 samples.

Results

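The 80S libraries of a translation complex profiling experiment in HEK293T cells were examined around start codons. 80S ribosomes that protected the start codon were set against 80S ribosomes early in the coding sequence and against 80S complexes in the 5′ leader. HEK293T is a human line derived from embryonic kidney cells. Translation complex profiling freezes ribosomal complexes on mRNA with formaldehyde, digests the RNA between them with RNase I, and sequences the protected pieces, called footprints, in separate libraries of small subunits (40S) and of complete ribosomes (80S). The 80S libraries are 2 of the 6 samples of the series, which also holds 2 libraries of 40S complexes, 1 of 40S complexes pulled down through eIF3b, and 1 of mRNA. All 4 libraries used here, 80S and 40S, came from HEK293T cells grown for 48 h at 37 °C and fixed with 0.3% formaldehyde for 5 min. Of the paired-end reads of 80S 1 and 40S 1 only read 1 was used, so library number and read layout cannot be told apart. The labels do not say whether the numbered libraries came from separate cultures, so spreads between them may be technical. Counts were summed over mRNAs, so no gene, sequence or marker of cell identity could be read from them here.

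At a start codon the scanning 40S complex stops, and the 60S subunit joins to form an 80S ribosome with the initiator tRNA in its P site. The ribosome then moves along the coding sequence 1 codon at a time, and RNase I cuts close to both of its edges. A footprint therefore records, through its 5′ end, its 3′ end and its length, where the complex stood and how far along the mRNA its contacts reached. In ribosome profiling of yeast, short footprints are known for ribosomes with an empty A site, and footprints of elongating ribosomes fall into one reading frame more than into the others.

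Each footprint was placed by its 5′ end, counted from the first base of the start codon as position 0. The start codon window covered -14 to -12, where the 5′ edge of a complex with the start codon in its P site lies. The early elongation window covered +1 to +30, and the leader window -80 to -41. Footprints were divided into classes of 18-24 nt, 25-35 nt and above 35 nt, up to 98 nt. From -80 to +30 there were 205451 footprint 5′ ends in 80S 1 and 94512 in 80S 2, against 151159 in 40S 1 and 69122 in 40S 2. In 80S 1 the windows held 10907 ends at the start codon, 90192 in early elongation and 28490 in the leader. In 80S 2 they held 7024, 44208 and 10242 ends. These numbers keep counting error small; with 2 libraries per fraction, an exact permutation test between fractions cannot give a p below 0.333, and an exact sign-flip test over the 2 80S libraries cannot go below 0.5. No comparison below can therefore pass 0.05, and each is given with its value in both libraries. Intervals at 95% cover counting error only, because without molecular identifiers several reads may stem from 1 molecule.

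80S footprints were denser at the start codon than over early elongation, and both were denser than in the leader. In 80S 1 there were 3636 ends per position at the start codon, 3006 in early elongation and 712 in the leader. In 80S 2 there were 2341, 1474 and 256 ends per position. The order of the windows was the same in both libraries, with a small step between start codon and early elongation and a large one down to the leader. The start codon window held 1.21 times the density of early elongation in 80S 1 (95% interval 1.19 to 1.23) and 1.59 times in 80S 2 (1.55 to 1.63). The gap between these libraries was much wider than their counting error. On the log2 scale the 80S ratio averaged 0.47 ± 0.28 (SD, n = 2, two-sided exact sign-flip p = 0.5). Its mean was 0.14 with a start window of -15 to -10, which takes in the flanks of the peak. In 80S 1 the flank positions -15, -11 and -10 held 0.836, 1.02 and 0.740 times the early elongation mean. In 80S 2 they held 0.687, 0.775 and 0.826 times. Within -15 to -10, the start codon window lay above that mean in both libraries, and of the flanks only -11 in 80S 1 did. Downstream, -3 held 1.08 times the mean in 80S 1 and 1.43 times in 80S 2, and position 0 held 2.96 and 2.57 times. The other positions from -9 to -1 lay below it, except -2 in 80S 1 at 1.15. The excess was therefore not limited to the start codon window.

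The same start codon to early elongation ratio was 3.17 in 40S 1 and 3.68 in 40S 2. The 40S values did not overlap with those of 80S, and the log2 ratio was 1.30 lower in 80S, with a mean of 0.47 ± 0.28 in 80S and 1.77 ± 0.15 in 40S (SD, n = 2 each; exact permutation p = 0.333, the lowest possible). Set against the leader, where 40S complexes scan, the fractions stood further apart in early elongation than at the start codon. Early elongation over leader was 4.22 in 80S 1 and 5.76 in 80S 2, against 0.982 in 40S 1 and 0.984 in 40S 2. Start codon over leader was 5.10 in 80S 1 and 9.14 in 80S 2, against 3.12 in 40S 1 and 3.62 in 40S 2. The log2 difference between 80S and 40S was 2.33 for early elongation over leader and 1.02 for start codon over leader (exact permutation p = 0.333 for both).

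**Figure D1:**
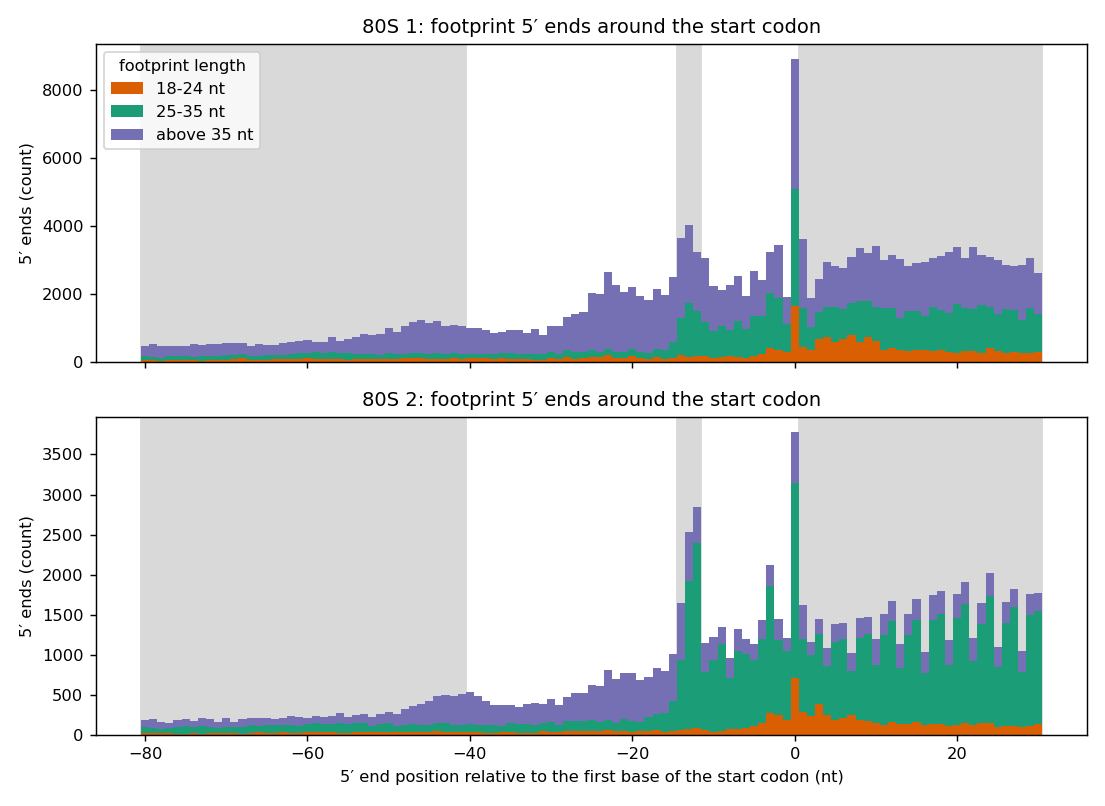
5′ ends of 80S footprints (count) at each position from -80 to +30 relative to the first base of the start codon (nt), stacked by length class, for 80S 1 (top) and 80S 2 (bottom); grey bands mark the leader, start codon and early elongation windows. The peak at -14 to -12 stands above the leader in both libraries, the tallest position is 0, and the leader is made up mainly of footprints above 35 nt.

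Footprint length separated the start codon from early elongation in the same direction in both 80S libraries. The median length was 37 nt at the start codon and 35 nt in early elongation in 80S 1, and 33 nt and 32 nt in 80S 2. Footprints above 35 nt made up 58.4% of the start codon window and 48.7% of early elongation in 80S 1, and 25.4% and 17.7% in 80S 2. Footprints of 18-24 nt made up 5.18% of the start codon window and 14.1% of early elongation in 80S 1, and 3.08% and 10.96% in 80S 2. In both libraries short footprints were thus rarer, and long ones more frequent, in the start codon window than in early elongation. That window was set by the 5′ end alone, so footprints over the start codon that began downstream of -12 fell outside it. The 18-24 nt share was 12.7% at -3 and 18.4% at position 0 in 80S 1, and 12.8% and 18.9% in 80S 2. A start codon window reaching those positions was not tested. In 80S the start codon minus early elongation difference was -8.42 ± 0.766 percentage points for 18-24 nt and 8.70 ± 1.41 points for above 35 nt (SD, n = 2, two-sided exact sign-flip p = 0.5 for both). The middle class hardly differed between the windows: 25-35 nt footprints were 36.4% at the start codon and 37.2% in early elongation in 80S 1, and 71.6% and 71.4% in 80S 2. Its difference was -0.276 ± 0.643 points, with opposite signs in the libraries.

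Footprint length also differed between the libraries. Footprints of 80S 1 were longer in each of these windows, with a median of 35 nt in the coding sequence from -80 to -41 before the stop codon, against 32 nt in 80S 2. The 40S libraries had the same gap between numbers, with a start codon median of 37 nt in 40S 1 and 32 nt in 40S 2. Comparisons of windows were therefore made within each library, and values set between 80S and 40S are given with both libraries of each.

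**Figure D2:**
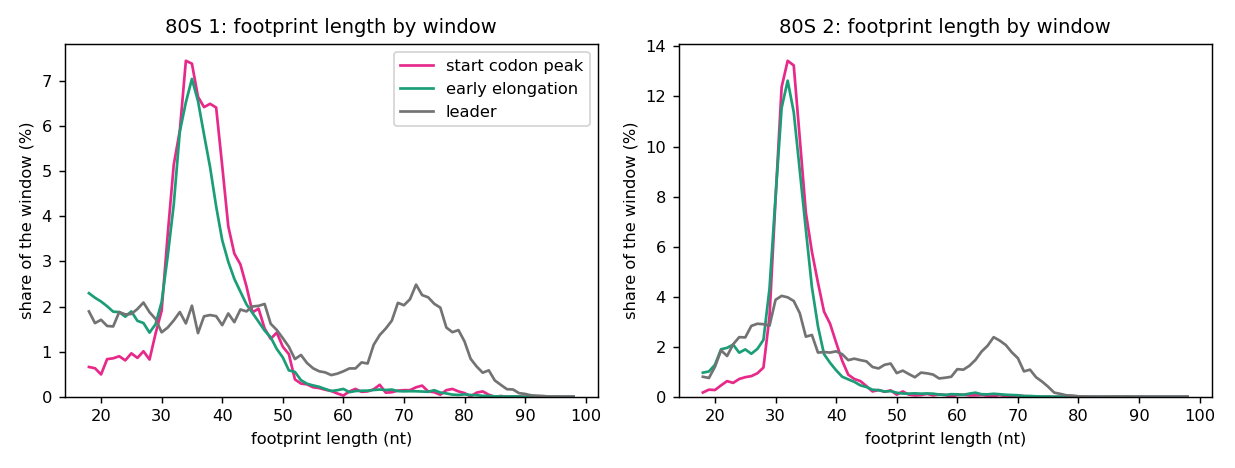
Share of each window's 5′ ends (%) by footprint length (nt) in 80S 1 and 80S 2, for the start codon, early elongation and leader windows; each panel has its own vertical scale. The start codon curve runs below early elongation up to 28 nt and above it from 37 to 44 nt in both libraries, and the leader has a second hump of long footprints, highest at 72 nt in 80S 1.

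Taken one class at a time, the start codon density in 80S was below that of early elongation for short footprints and above it for the others. For 18-24 nt the ratio was 0.443 in 80S 1 (0.406 to 0.482) and 0.446 in 80S 2 (0.387 to 0.511), the class in which the libraries differed least. For 25-35 nt it was 1.19 in 80S 1 and 1.59 in 80S 2, and for above 35 nt 1.45 in 80S 1 and 2.28 in 80S 2. The 40S ratios in the short class were also the lowest of the 3 classes, at 0.635 in 40S 1 and 0.926 in 40S 2.

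By single length, the ratio was mostly higher at longer lengths up to about 40 nt, though not at every step. At 20 nt it was 0.284 in 80S 1 (0.212 to 0.372) and 0.336 in 80S 2 (0.201 to 0.529). At 28 nt it was 0.702 in 80S 1 (0.561 to 0.870) and 0.815 in 80S 2 (0.643 to 1.02). At 30 nt it stood at 1.10 in 80S 1 and 1.57 in 80S 2. The ratio first passed 1 at 29 nt in both libraries, at 1.05 in 80S 1 (0.886 to 1.25) and 1.18 in 80S 2 (1.02 to 1.35). The ratio was highest among 18 to 45 nt at 39 nt in both, at 1.84 (1.69 to 1.99) in 80S 1 and 3.42 (2.90 to 4.01) in 80S 2.

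How far the short class differed between the windows depended on which codons of early elongation were taken. In 80S 1, 18-24 nt footprints were 18.7% of the ends at +1 to +3, 23.6% at +4 to +6 and 22.2% at +7 to +9. They were 14.6% at +10 to +12 and 9.88% at +28 to +30. In 80S 2 the shares were 21.4%, 16.8% and 15.2% over the same first steps, 10.0% at +10 to +12 and 7.47% at +28 to +30. Both libraries had a zone of short footprints over the first 9 positions after the start codon's first base. That zone, 30% of the window, held 44.2% of the 18-24 nt ends in 80S 1 and 44.5% in 80S 2. It held 25.6% and 24.7% of the 25-35 nt ends, and 27.1% and 26.6% of those above 35 nt. With early elongation limited to +16 to +30, the 18-24 nt difference between start codon and early elongation was -4.88 points rather than -8.42.

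The zone of short footprints was also present in 40S, where +1 to +9 held 58.4% of 18-24 nt ends in 40S 1 and 65.02% in 40S 2. The 40S share of 18-24 nt footprints over all of early elongation was 20.2% in 40S 1 and 37.3% in 40S 2, above both 80S values of 14.1% and 10.96%. Total density along early elongation ran in opposite directions in the fractions. Positions +16 to +30 held 1.03 times the 5′ ends of +1 to +15 in 80S 1 (1.01 to 1.04) and 1.13 times in 80S 2 (1.11 to 1.15). The same ratio, called the codon trend below, was 0.654 in 40S 1 and 0.559 in 40S 2. The mean was 1.08 ± 0.0743 in 80S and 0.606 ± 0.0667 in 40S (SD, n = 2 each; exact permutation p = 0.333). Within 80S, the 18-24 nt class alone was sparser at +16 to +30 than at +1 to +15, with a ratio of 0.579 in 80S 1 and 0.605 in 80S 2. The ratio was 1.196 and 1.26 for 25-35 nt and 1.08 and 1.09 for above 35 nt.

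**Figure D3:**
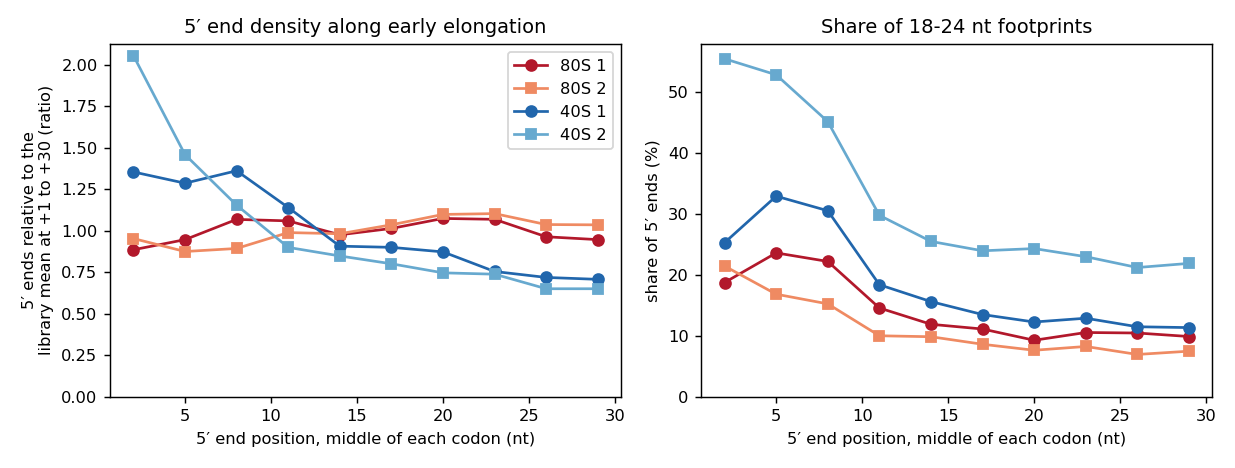
Left, 5′ ends per step of 3 positions in early elongation, relative to the library's mean over +1 to +30 (ratio). Right, share of 18-24 nt footprints among them (%). The horizontal axis gives the middle position of each step (nt), labelled codon, for 80S 1, 80S 2, 40S 1 and 40S 2. The 80S density stays near 1 while the 40S density declines, and the short share at +10 to +12 is below that at each of the first 3 steps in all 4 libraries.

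The 3′ ends showed where those short footprints stopped. A 3′ end was placed at the 5′ position plus the length minus 1, over all 5′ ends from -80 to +30. In 80S, 18-24 nt footprints ended most often at +23, with 987 ends in 80S 1 and 421 in 80S 2. Footprints above 35 nt ended most often at +24, with 5752 ends in 80S 1 and 1749 in 80S 2. Short and long footprints thus had nearly the same preferred 3′ edge downstream of the start codon, although their 5′ ends lay far apart. Per position, 18-24 nt ends were 2.62 times as dense at +22 to +27 as at +36 to +45 in 80S 1 (2.50 to 2.74) and 2.42 times in 80S 2 (2.25 to 2.60). The ratio was 2.97 and 4.71 for above 35 nt but 1.35 and 1.12 for 25-35 nt. The middle class had its highest 3′ position at +24 in 80S 1 and +20 in 80S 2. In 40S the 18-24 nt class gave 4.88 in 40S 1 and 6.12 in 40S 2, also with the highest position at +23, so its 80S mean of 2.52 ± 0.138 was below the 40S mean of 5.50 ± 0.876 (SD, n = 2 each; exact permutation p = 0.333).

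Position 0 contributed to this edge. It was the tallest 5′ position in both 80S libraries, with 8902 ends in 80S 1 and 3784 in 80S 2, which is 2.96 and 2.57 times the early elongation mean. It lies outside the start codon and early elongation windows. Its footprints were rich in the short class, at 18.4% in 80S 1 and 18.9% in 80S 2. Without footprints that began there, the 18-24 nt ratio of 3′ ends was 2.27 in 80S 1 (2.16 to 2.37) and 2.01 in 80S 2 (1.87 to 2.17), and the highest position was +24 in both. Short footprints that began at position 0 were too short to end at +24, so leaving them out could not lower the count there. By the ratio, the edge was present in short footprints with other 5′ ends as well. Position 0 also stood out in 40S, at 4.36 times the early elongation mean in 40S 1 and 5.32 times in 40S 2. Just upstream of it, 3′ ends of leader footprints at -1 numbered 492 in 80S 1 and 128 in 80S 2, against 226 and 71 at position 0 and 407 and 114 at -2. In 80S 2 there were 141 at -5, so -1 was not a distinct peak there. The fall from -1 to position 0 was seen in both libraries. The part that cutting or read ends at that boundary play was not tested.

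**Figure D4:**
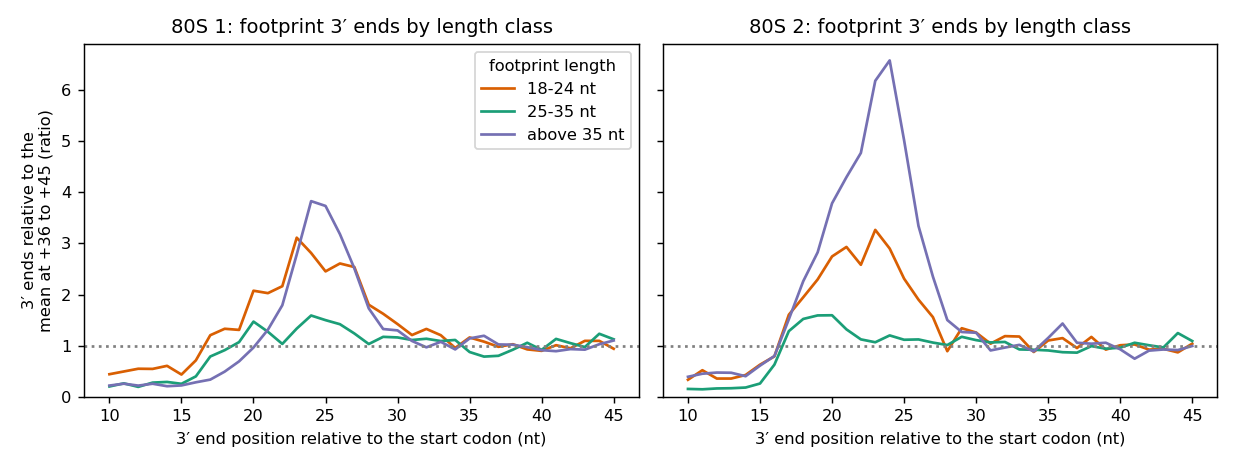
3′ ends of 80S footprints at +10 to +45 relative to the first base of the start codon (nt), by length class, as a ratio to the class mean at +36 to +45 (dotted line at 1), for 80S 1 and 80S 2. The 18-24 nt and above 35 nt classes peak at +23 and +24, and the 25-35 nt class is on average the nearest to 1 from +22 to +27.

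The 5′ edge at the start codon moved outward with length. In 80S 2 the fullest 5′ position between -16 and -9 was -12 for every length from 29 to 33 nt, -13 from 34 to 36 nt, -13 or -14 from 37 to 39 nt and -15 at 40 and 41 nt. In 80S 1 it was -12 at 29 and 30 nt, -13 from 31 to 34 nt, -14 at 35 and 36 nt, -13 or -14 from 37 to 40 nt and -15 from 41 to 43 nt. Within that range, longer start codon footprints thus reached further in both directions, though not evenly. The 3′ ends of these fullest positions ran from +16 to +27. The search met its limit of -16 at 42 to 44 nt in 80S 2, so 5′ ends further out were not followed. Footprints above 35 nt had a further local peak at -23, with 2248 ends in 80S 1 and 630 in 80S 2. At -14 they numbered 2354 and 717. Within the start codon window, 25-35 nt footprints of 80S 1 lay 32.998% at -12, 39.7% at -13 and 27.3% at -14. Those of 80S 2 lay 45.8% at -12, 36.8% at -13 and 17.4% at -14. Footprints above 35 nt were fullest at -14 in both libraries, with 37.0% in 80S 1 and 40.2% in 80S 2.

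Across the 12 lengths from 29 to 40 nt, the fullest start codon position was the same in 80S 1 as in 40S 1 at 9 lengths and within 1 nt at 11. It was the same in 80S 2 as in 40S 2 at 7 lengths and within 1 nt at 12. The 2 80S libraries shared the position at 5 of the 12 lengths and were within 1 nt at 11. By this measure a start codon 80S footprint lay where a start codon 40S footprint of the same length lay, to within the difference between libraries.

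Early elongation footprints were unevenly spread over the reading frames, most of all at 29 to 31 nt in 80S 2. Frame 0 was taken as 5′ positions divisible by 3, so -12 is in frame 0, -14 in frame 1 and -13 in frame 2, and an even spread puts 33.3% in each. Early elongation footprints of 25-35 nt in 80S 1 lay 32.9% in frame 0, 31.03% in frame 1 and 36.1% in frame 2. In 80S 2 they lay 40.7% in frame 0, 22.7% in frame 1 and 36.6% in frame 2. Leader footprints of the same class were close to even, at 31.98%, 33.3% and 34.7% in 80S 1 and 32.6%, 34.03% and 33.4% in 80S 2. The leader thus lacked the frame that the coding sequence had in 80S 2, and in 80S 1 the class as a whole was nearly even in both windows. Early elongation footprints above 35 nt lay 37.8% in frame 1 in 80S 1 (37.4 to 38.3) and 36.5% in 80S 2 (35.4 to 37.6), against 33.1% and 31.9% in the leader. The long class thus leaned to frame 1 in early elongation of both libraries. It did so in 40S too, with 39.7% in 40S 1 and 37.6% in 40S 2. Before the stop codon, 80S 1 footprints above 35 nt were again fullest in frame 1, at 38.5%. Those of 80S 2 were fullest there in frame 2, at 36.7% against 34.1% in frame 1.

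Pooling lengths hid part of the frame, because the favoured frame changed with length. In 80S 2, frame 0 held 58.8% at 29 nt, 57.2% at 30 nt and 45.9% at 31 nt. From 32 to 36 nt frame 2 was the fullest there, with 41.3% at 34 nt, and frame 1 followed from 37 to 39 nt. Longer lengths held 468 ends or fewer each there. In 80S 1, frame 0 held 43.6% at 30 nt, frame 2 held 41.5% at 32 nt and 40.7% at 34 nt, and frame 1 held 38.8% at 36 nt and 43.2% at 45 nt. The order from frame 0 through frame 2 to frame 1 with growing length was the same in both libraries, and its range was wider in 80S 2.

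**Figure D5:**
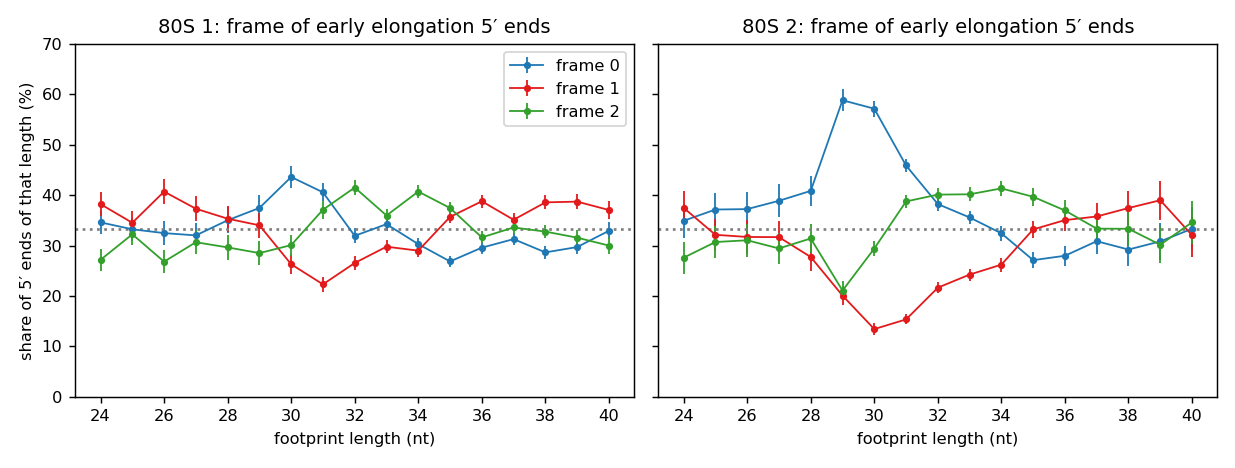
Share of early elongation 5′ ends in each frame (%) by footprint length from 24 to 40 nt, for 80S 1 and 80S 2; bars are 95% counting intervals and the dotted line is an even share of 33.3%. Frame 0 leads at 29 to 31 nt in both libraries, reaching 58.8% in 80S 2 and 43.6% in 80S 1, and frame 2 leads at 32 to 35 nt.

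To compare windows free of that shift, the frame was fixed for each length from the coding sequence before the stop codon in the same library, and 5′ ends near the start codon were counted in it. For 25-35 nt the share was 41.96% at the start codon, 38.4% (37.8 to 38.9) in early elongation and 33.4% (32.2 to 34.7) in the leader of 80S 1. In 80S 2 it was 47.7% at the start codon, 44.1% (43.5 to 44.6) in early elongation and 33.3% (31.7 to 34.9) in the leader. Start codon and early elongation footprints were thus both above an even share in the frame set elsewhere, while the leader interval included 33.3% in both libraries. The early elongation minus leader difference was 7.86 ± 4.15 percentage points (SD, n = 2; two-sided exact sign-flip p = 0.5). The start codon window holds 1 position of each frame, so its share reflects a peak of position and is not a measure of codon-by-codon movement.

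Set against the frame per length, 40S footprints of 25-35 nt were as high as 80S at the start codon and lower in early elongation. For 25-35 nt the 40S share, in the frames of the 80S library of the same number, was 42.8% and 47.8% at the start codon and 34.6% and 38.3% in early elongation, for 40S 1 and 40S 2. The 80S mean in early elongation was 41.2 ± 4.03% and the 40S mean 36.4 ± 2.61% (SD, n = 2 each; exact permutation p = 0.333). The groups did not overlap, but only just, since the lower 80S value was 38.4% in 80S 1 and the higher 40S value was 38.3% in 40S 2. Length by length from 29 to 36 nt, the fullest early elongation frame was the one before the stop codon at 7 of 8 lengths in 80S 1 and 8 of 8 in 80S 2. The frame of the start codon peak matched that of early elongation at 6 of the 8 lengths in both. From 25 to 45 nt the agreement was looser. There the fullest early elongation frame was the one before the stop codon at 17 of 21 lengths in 80S 1. In 80S 2 this held at 13 of 21. The start codon peak frame matched that of early elongation at 10 of 21 lengths in 80S 1 and 12 of 21 in 80S 2.

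The short class carried little frame. For 18-24 nt, early elongation held 35.9% in the frame of the same length before the stop codon in 80S 1 and 35.2% in 80S 2, against 35.5% and 32.99% in the leader. The difference was 1.26 ± 1.30 points (SD, n = 2; two-sided exact sign-flip p = 0.5). Its pooled frame shares in early elongation were 35.9%, 35.5% and 28.6% in 80S 1, and the leader had 34.4%, 34.8% and 30.8%, so the low frame 2 was found in both windows. For 36-45 nt, early elongation was at 37.7% and the leader at 34.8% in 80S 1, and at 34.6% and 32.2% in 80S 2. The 40S mean in early elongation was not below that of 80S in these classes. For 18-24 nt it was 36.4% in 40S against 35.5% in 80S, and for 36-45 nt 36.4% against 36.1%. The 36-45 nt values of 40S lay apart, at 39.9% in 40S 1 and 32.9% in 40S 2.

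Leader 80S footprints were unlike either coding window in length. In 80S 1 their median of 46 nt was 9 nt above that of the start codon, and in 80S 2 their median of 37 nt was 4 nt above it. Footprints above 35 nt formed 68.3% of the leader in 80S 1 and 53.96% in 80S 2. The 40S leader was alike, with medians of 44 nt in 40S 1 and 37 nt in 40S 2, and 69.5% and 52.2% above 35 nt. In 80S the step in density from early elongation down to the leader was accordingly smallest in that class, at 3.01 in 80S 1 and 1.88 in 80S 2. It was 7.98 and 11.6 for 25-35 nt and 4.95 and 5.88 for 18-24 nt. The start codon over leader ratio was 9.47 and 18.5 for 25-35 nt, but 4.36 and 4.30 for above 35 nt.

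A large part of those long leader footprints reached over the start codon. Of leader 5′ ends, 28.9% in 80S 1 (28.4 to 29.5) and 18.4% in 80S 2 (17.6 to 19.2) had a 3′ end at +10 to +35, with the highest position at +24 and +23. These footprints had median lengths of 73 nt and 67 nt, while those that ended before the start codon had medians of 36 nt and 33 nt. Over all leader footprints, the leader minus start codon difference in median length averaged 6.5 nt, and over those with 5′ ends at -80 to -61 it averaged 3 nt. Among footprints that ended before the start codon it averaged -0.5 nt, but that condition itself sets a limit on length in the leader and not at the start codon, so the values are not a like comparison. In 40S, 15.4% and 11.8% of leader ends reached +10 to +35, so the mean was 23.7 ± 7.45% in 80S and 13.6 ± 2.55% in 40S (SD, n = 2 each; exact permutation p = 0.333). A length of at least 72 nt is needed to reach +10 from -61, and from -80 to -61 the share was 3.77% and 0.284% in 80S against 1.73% and 0.0864% in 40S. From -60 to -41 it was 43.6% and 29.4% in 80S against 27.6% and 20.95% in 40S.

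The same long reach was found closer to the start codon. Of 80S 5′ ends at -40 to -15, 73.1% in 80S 1 and 70.5% in 80S 2 ended at +10 to +35, with the highest 3′ position at +24 in both, against 73.4% and 65.2% in 40S. Start codon footprints proper ended there in 88.4% and 96.0% of cases in 80S, with the highest position at +20 in 80S 1 and +18 in 80S 2. Whether the long footprints covered 1 complex or several next to each other cannot be told apart from their ends. With the leader counted only from footprints that ended before the start codon, start codon over leader was 7.98 in 80S 1 and 12.2 in 80S 2, and early elongation over leader was 6.60 and 7.67. For 40S, early elongation over leader was then 1.29 and 1.23. This condition removes footprints from the leader alone, so it can only raise the ratios.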

How the data were processed

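The authors deposited, per the file headers and layout, whole-number counts of footprint 5′ ends by position around start and stop codons in 81 unnamed columns of footprint length, summed over mRNAs. They also deposited, for 40S, mean values per position, each a fraction of a gene's ends. The length columns were read as 18 nt upward, because the lowest deposited 3′ end of the 40S fractions was met by 18 nt and the Pearson correlation across positions was highest there (0.996 in 40S 1, 0.997 in 40S 2). For 80S this could not be checked. TopHat2 2.1.0, Bowtie2 2.2.6, Bowtie 1.2.2, CASAVA 1.8 and build GRCh38 were used, per the submitters' processing notes. Which tool did what, and how multiply matching reads and mRNAs were chosen, is not given in the sources used here. No column was left unmapped (0).

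From the counts, densities per position, class shares with exact Clopper-Pearson intervals at 95%, density ratios with exact conditional intervals, frame shares and 3′ ends were computed per library (Python 3.11.15, numpy 2.4.6, scipy 1.17.1, matplotlib 3.10.9). No filter or scaling was applied, since every ratio was taken within 1 library. Tests were exact sign-flip and exact permutation tests over libraries. The steps were tested on simulated data. The windows, length classes and tests were chosen with earlier results of these data known. The frame fixed per length, the 3′ ends, the codon trend and the short-class ratio were added after seeing the values. No gene was named, since the counts hold none.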

Additional observations from a re-analysis of the deposited data

Results flagged for a closer look

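Ratios were taken over all lengths and by length class. They were start codon over early elongation, early elongation over leader, and +16 to +30 over +1 to +15 within early elongation. In 5 of these 12 ratios both 80S libraries lay above 1 and both 40S libraries below it; the exact permutation p of groups that do not overlap is 0.333 in this design, its lower limit. For +16 to +30 over +1 to +15, 80S minus 40S was 0.83 on the log2 scale over all lengths, 0.70 for 25-35 nt and 0.42 for above 35 nt. For above 35 nt those ratios were 1.08 and 1.09 in 80S, against 0.793 and 0.826 in 40S. For early elongation over leader, 80S minus 40S was 2.33 over all lengths and 2.34 for above 35 nt, with mean ratios in the long class of 2.45 ± 0.796 in 80S and 0.487 ± 0.180 in 40S (SD, n = 2 each). Over all lengths the 40S ratios were barely below 1, at 0.982 in 40S 1 (0.968 to 0.997) and 0.984 in 40S 2 (0.962 to 1.01). With the leader counted only from footprints that ended before the start codon, they were 1.29 and 1.23, and the split at 1 was lost. That condition lowers the leader count alone, so it can only raise these ratios and is not a like comparison.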

How the results depend on the processing

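Over 15 results and 100 alternatives, some chosen after seeing the data, 73 kept their sign and moved by at most 1 SD between libraries, which for some wide-spread results allows a change of several fold. A start window of -15 to -10 moved the start codon over early elongation log2 ratio to 0.14, the differences in share to -3.87 points for 25-35 nt and 11.97 for above 35 nt, and the 18-24 nt log2 ratio to -1.38. With early elongation at +4 to +30 the share differences were -1.06 (25-35 nt) and -7.65 (18-24 nt) and the 18-24 nt log2 ratio -1.08. With +16 to +30 they were -3.42, -4.88 and -0.74, and the 80S minus 40S log2 difference was -1.76. A first length of 17 nt gave 1.496 for the 25-35 nt share difference, -1.04 for the 18-24 nt log2 ratio and 1.23 for the log2 ratio of short 3′ ends; 19 nt gave -1.80, -7.41 (18-24 nt share) and -1.26. Leader minus start codon median length was 3 nt from -80 to -61, -0.5 nt for leader footprints ending before the start codon, a condition that limits leader length by construction, and -1.5 nt for footprints up to 50 nt. The 80S minus 40S difference in leader footprints past the start codon was 1.12 points from -80 to -61 (exact permutation p = 0.667). The codon trend was 0.66 with 4 steps a side. The short 3′ end log2 ratio was 1.23 with windows of +20 to +29 and +38 to +47 and 1.09 without position 0. Leaving out 1 library in turn gave -0.731 to 0.178 points for the 25-35 nt share difference, -1.82 to 4.30 for the 25-35 nt share at the start codon in 80S minus 40S, and 0.65 to 1.02 for the codon trend. The cause of the other shifts was not tested. With a replicate block pairing libraries of the same number, which only share a number and a read layout, 80S minus 40S was -1.30 for start codon over early elongation (exact sign-flip p = 0.5, the smallest possible), 1.24 for the 25-35 nt share at the start codon (p = 1), 10.1 for leader footprints past the start codon and 0.83 for the codon trend (both p = 0.5). Limits are the 2 libraries per fraction, the first length unchecked in 80S, and the read layout tied to library number; the smallest class at the start codon held 216 ends, in 80S 2.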

Other observations

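Between the start codon window and position 0, 5′ ends at -3 formed a further local peak in 80S 2, with 2114 ends against 1440 at -2 and 1205 at -1. In 80S 1 the ends numbered 3243 at -3, 3453 at -2 and 1905 at -1, so the peak at -3 was not separate there. The short class made up 12.7% of the ends at -3 in 80S 1 and 12.8% in 80S 2, between its share in the start codon window and that at position 0.

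At -40 to -15, 80S footprints above 35 nt formed 79.5% of 5′ ends in 80S 1 and 69.9% in 80S 2, against 79.4% in 40S 1 and 67.2% in 40S 2. Just after the start codon window, at -11 to -1, they formed 49.4% and 18.5% in 80S, close to the 48.7% and 17.7% of early elongation.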
